A study of Mus musculus with 3 samples.

Results

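The nuclear genome encodes most subunits of the mitochondrial oxidative phosphorylation (OXPHOS) system, and 78 of these genes were followed here through the stages of sperm formation in the mouse testis. They were chosen by gene symbol (the Nduf subunits of complex I, the 4 Sdh genes of complex II, the Uqcr genes of complex III, the Cox4 to Cox8 subunits of complex IV and the Atp5 subunits of complex V), with assembly factors, pseudogenes, genes of the Cox6b and Cox7b families, Cox8a and Cox8c left out. Of the 31053 genes in the count tables, the rule took 35 genes of complex I, 4 of complex II, 8 of complex III, 14 of complex IV (Ndufa4 and Ndufa4l2 were counted here, since Ndufa4 protein is now placed in this complex) and 17 of complex V. Atp5o appears with 2 overlapping gene models, whose reads cannot be told apart with certainty, and each model counts as 1 member. The rule uses symbols and no measured value, but it was set with earlier results of these data known. They are set beside the 13 protein genes of the mitochondrial DNA, whose symbols start with mt-.

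Testicular cells of wild type (WT), GRTH-KO (KO) and GRTH-KI (KI) C57BL/6 mice were profiled by droplet single-cell RNA-seq, with 1 library for each genotype. GRTH (gene symbol Ddx25) is a testis-specific DEAD-box RNA helicase of germ cells. The KO lacks the gene, and the KI carries a human GRTH gene with a point mutation that removes the phosphorylated form of the protein. The labels state 1 mouse of 8 weeks for each genotype and 7000 loaded cells, whereas the methods of the study state testes pooled from 2 mice and an age of 8 to 16 weeks. With 1 library per genotype, the genotypes could be compared without replicates and so without any test. Every interval below is a 95% interval of the counting error in unique molecular identifiers (UMIs, 1 for each captured transcript) and does not cover differences between animals or libraries.

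The electron transport chain passes electrons from NADH (complex I) and succinate (complex II) through complex III to oxygen at complex IV, and complex V makes ATP from the resulting proton gradient. Each complex except complex II joins nuclear-encoded subunits with core subunits made inside mitochondria from mitochondrial DNA. In the testis, spermatogonia and early spermatocytes divide next to the blood supply, while later germ cells live behind the blood-testis barrier and use lactate from Sertoli cells. Round spermatids later discard most cytoplasm and arrange their remaining mitochondria around the flagellum.

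Promoters of OXPHOS genes are known for sites of NRF1, of the ETS-family factor GABP and of YY1. Promoters are shown for 5 members that the results turn on, 3 from genes that were lower in both mutants in round spermatid-like cells and then 2 from genes that were not. Each covers 250 bases before to 50 bases after the RefSeq start on GRCm38.p6, written 5′ to 3′ along the gene, and capitals mark matches on either strand to GCGCA followed by any base and GCGC (NRF1, a string that can be its own reverse complement), CCGGAAG (ETS) or AAGATGGCG (YY1).
Ndufs6, chr13:73328433-73328732 (minus strand): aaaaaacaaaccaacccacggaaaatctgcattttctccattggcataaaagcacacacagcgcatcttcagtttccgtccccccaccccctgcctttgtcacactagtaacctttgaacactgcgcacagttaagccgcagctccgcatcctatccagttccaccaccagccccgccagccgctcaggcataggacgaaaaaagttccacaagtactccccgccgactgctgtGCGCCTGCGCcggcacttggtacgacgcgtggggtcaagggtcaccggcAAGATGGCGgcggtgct
Atp5g3, chr2:73911277-73911576 (minus strand): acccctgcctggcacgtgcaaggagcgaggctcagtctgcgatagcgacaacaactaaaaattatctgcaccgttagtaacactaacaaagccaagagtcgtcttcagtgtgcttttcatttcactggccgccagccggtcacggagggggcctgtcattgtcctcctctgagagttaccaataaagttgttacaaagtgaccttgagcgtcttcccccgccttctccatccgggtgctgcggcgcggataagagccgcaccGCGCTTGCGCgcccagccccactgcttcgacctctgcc
Sdhb, chr4:140961021-140961320 (plus strand): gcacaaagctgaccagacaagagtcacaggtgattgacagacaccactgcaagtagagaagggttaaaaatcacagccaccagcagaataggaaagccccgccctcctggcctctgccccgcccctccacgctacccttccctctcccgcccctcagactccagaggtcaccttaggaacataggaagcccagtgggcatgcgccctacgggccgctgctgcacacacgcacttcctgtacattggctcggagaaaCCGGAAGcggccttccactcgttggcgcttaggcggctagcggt
Uqcrc1, chr9:108936398-108936697 (plus strand): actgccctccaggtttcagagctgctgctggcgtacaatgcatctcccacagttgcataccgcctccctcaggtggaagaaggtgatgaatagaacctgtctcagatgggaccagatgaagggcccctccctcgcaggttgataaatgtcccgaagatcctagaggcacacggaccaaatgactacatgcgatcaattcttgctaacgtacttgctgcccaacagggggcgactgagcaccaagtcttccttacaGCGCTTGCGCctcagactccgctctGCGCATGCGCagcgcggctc
Cox5b, chr1:36691237-36691536 (plus strand): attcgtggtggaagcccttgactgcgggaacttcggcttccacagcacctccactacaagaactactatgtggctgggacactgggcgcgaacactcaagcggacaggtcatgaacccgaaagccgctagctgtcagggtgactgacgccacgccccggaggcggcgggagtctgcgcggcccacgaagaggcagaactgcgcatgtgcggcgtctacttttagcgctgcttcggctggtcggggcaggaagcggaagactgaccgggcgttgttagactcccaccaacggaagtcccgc
The window of Cox5b held none of the 3 strings, which says only that these letters are not in it. Promoters could be matched for 60 members. The other 18 had no entry in the RefSeq table used here, so they are in none of the motif counts. Among these 18 were Cox4i1 and Cox6c, the members furthest below WT in RS-like cells by the smaller of their KO and KI ratios. The NRF1 string was in 16 of the 60 (26.7%), compared with 5.19% of the windows of 27025 genes. The ETS string was in 14 (23.3%, compared with 9.93%), and the YY1 string was in 7 (11.7%, compared with 1.64%). Among the 8 matched members that were lower in both mutants, 2 held the NRF1 string (Ndufs6 and Atp5g3), 3 the ETS string (Sdhb, Uqcrh and Ndufs8) and 1 the YY1 string (Ndufs6). Among 46 other members with enough counts, 13, 10 and 6 did. A match of letters is a description of the sequence and not evidence of binding.

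Libraries held 82973909 UMIs in WT, against 91388296 in KO and 73150373 in KI, and 5857, 4058 and 1567 cells were kept. Clusters were built without the 78 members and the 13 mt- genes, so that these genes had no part in placing cells, and were ordered by stage markers. Cluster 11 shared markers of spermatogonia and early spermatocytes and is given by number. Clusters 9, 7 and 2 were spermatocyte-like (SP-like), cluster 10 was round spermatid-like (RS-like), and clusters 8, 5 and 6 were elongated spermatid-like (ES-like). Cluster 2 also carried round spermatid markers, with Acrv1 (an acrosome protein) at 326 UMIs per 1000000 (CPM) in WT, compared with 335 in KO and 308 in KI. Clusters 3, 4 and 12 were left unnamed. Cluster 1 scored as round spermatids but had a median of only 1371 UMIs per cell, so it was kept apart, a choice made after seeing the data. It held 11.4%, 16.7% and 15.4% of the kept cells of WT, KO and KI. Cluster 10 had 320 WT, 184 KO and 87 KI cells with 6176777, 4003052 and 4055429 UMIs. The KI cells there were the deepest, with a median of 32126 UMIs, compared with 13083.5 in WT and 15323 in KO. A pair of kept cells shared a barcode 16 times between WT and KO, 37 times between WT and KI and 8 times between KO and KI. Ddx25 was at 212 CPM in SP-like cells of WT, 0.302 in KO and 97.7 in KI. In RS-like cells it was at 118 CPM in WT and 145 in KI, and KO had 0 UMIs, which allows up to 0.749 CPM. Whether transcripts of the human allele of KI are counted under mouse Ddx25 is not known, so the KI values may miss or include them.

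In WT, the members took their largest share of the transcripts in spermatocytes and declined through spermiogenesis. Their summed share of UMIs was 2.05% in cluster 11, 2.58% in cluster 9, 2.47% in cluster 7, 2.55% in cluster 2, 1.94% in cluster 10 and 1.07% in cluster 8. It was 0.606% in cluster 5 and 0.530% in cluster 6, the late ES-like clusters. The 13 mt- genes followed another course: their share was highest in cluster 11, at 4.62%, and was lower at each step down to cluster 10, with 2.40% in cluster 9, 1.61% in cluster 7, 0.929% in cluster 2 and 0.0361% in cluster 10. In the ES-like clusters it was above that of cluster 10, at 0.0495% in cluster 8, 0.0677% in cluster 5 and 0.135% in cluster 6. The mt- genes therefore outweighed the members in cluster 11, were close to them in cluster 9, and in cluster 10 held 2230 UMIs, compared with 119682 for the members. Cells with 10% or more mitochondrial UMIs had been removed in the way of the study, which bounds the mt- values from above.

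**Figure D1:**
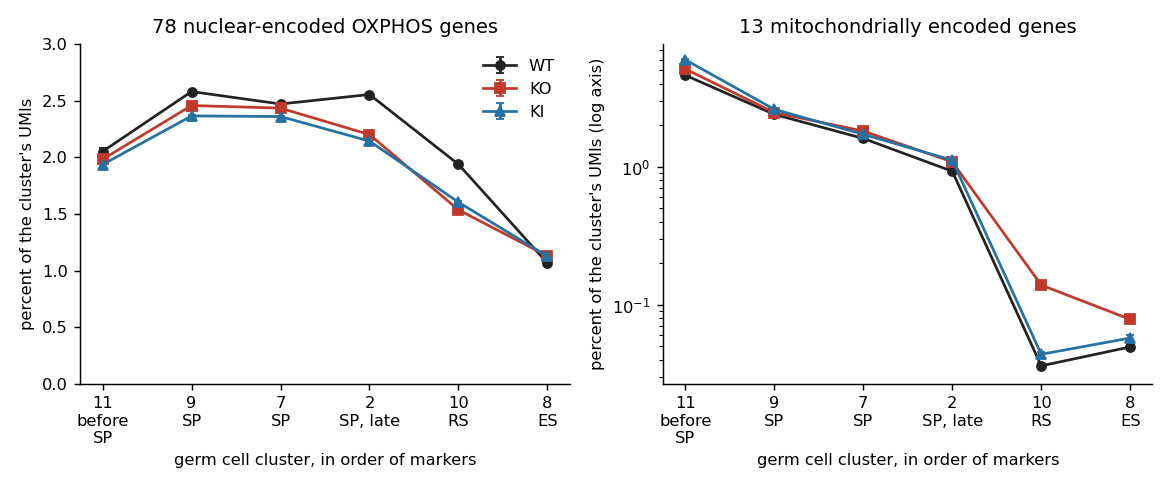
Share of UMIs (percent) taken by the 78 nuclear-encoded OXPHOS genes (left, axis from 0) and by the 13 mitochondrially encoded genes (right, log axis) in 6 germ cell clusters, with clusters in the order of their stage markers on the horizontal axis and 1 line per library. Bars are 95% intervals of counting error and are mostly smaller than the points; the member share of WT falls from 2.55% in cluster 2 to 1.94% in cluster 10 and 1.07% in cluster 8, with KO and KI lower than WT in clusters 2 and 10, while the mt- share drops to between 0.0361% and 0.139% in cluster 10.

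From cluster 11 to cluster 9, members and mt- genes of WT moved apart. The median log2 ratio of the 74 members tested (a mean of at least 10 CPM over the compared classes) was 0.28, compared with −0.47 over all genes tested, whereas that of the mt- genes was −1.08. Past 1.5-fold, 25 of the 74 members were higher (33.8%, compared with 24.9% of all genes tested) and 7 were lower (46.4% of all genes). All 13 mt- genes were lower past 1.5-fold. Complex III, which passes electrons to cytochrome c, stood highest in this step, with 0.196% of UMIs in cluster 11 and 0.369% in cluster 9, and 5 of its 8 genes higher. Uqcrq, a small complex III subunit and the most abundant member over the WT germ cell classes, was at 468 CPM in cluster 11 and 1592 in cluster 9. Cox4i1, which encodes subunit 4 of cytochrome c oxidase, was at 1101 and 1654 CPM. Cox7a2, Ndufa7, Ndufc1 and Cox4i1 followed Uqcrq in mean level over the classes, at 1075, 776, 750.3 and 722 CPM. The share of complex V was 0.517% and 0.528%.

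Members peaked at different stages in WT. Of 74 members tested over clusters 11 to 8, 22 were highest in cluster 11, 24 in cluster 9, 7 in cluster 7, 18 in cluster 2, 2 in cluster 10 and 1 in cluster 8. Clusters 10 and 8 were thus the peak of 2.70% and 1.35% of the members, compared with 13.9% and 9.82% of all 9511 genes. All 12 mt- genes tested were highest in cluster 11. Cluster 10 was the peak of Ndufa5 and of Atp5g1, and cluster 8 that of Ndufa13. Ndufa13, also known as Grim19, a complex I subunit, was at 280 CPM in cluster 11, 148 in cluster 2, 336 in cluster 10 and 922 in cluster 8 of WT.

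Genes that encode the same or a related subunit took turns along the lineage. The 3 Atp5g genes encode the same mature subunit c, which forms the rotating ring of ATP synthase, and differ in their import sequence. In clusters 11, 9, 7, 2, 10 and 8 of WT, Atp5g2 was at 405, 109, 15.7, 33.5, 34.6 and 25.7 CPM. Atp5g3 was at 223, 204, 78.7, 49.2, 27.8 and 12.3 CPM. Atp5g1, in contrast, was at 236, 249, 130, 228, 443 and 316 CPM, so that it held most of the subunit c transcripts in the 3 later clusters. Ndufa4 was at 224 CPM in cluster 11 and at 32.7, 5.05, 8.63, 4.53 and 1.69 CPM in the later clusters, and its paralog Ndufa4l2 was lowest in cluster 11 and highest in cluster 2, with 21.4, 48.7, 176, 210, 144 and 47.4 CPM. In cluster 11 Ndufa4 was the higher gene of the pair in all 3 libraries, and in clusters 9 to 8 Ndufa4l2 was.

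The 2 X-linked members were low in spermatocytes. The sex chromosomes are transcriptionally silenced in these cells, and the part of this in the levels was not tested. Ndufa1, an accessory subunit of complex I, lies on chromosome X from 37187588 to 37191163 (minus strand) and was at 407 CPM in cluster 11 and at 45.0, 9.70, 12.8, 11.5 and 7.05 CPM in clusters 9, 7, 2, 10 and 8 of WT. Ndufb11, another accessory subunit, lies from 20615326 to 20617619 (minus strand) and was at 55.9 CPM in cluster 11, 0.483 in cluster 9, 0.906 in cluster 7 and between 6.21 and 10.0 in the later clusters. Both genes were also higher in cluster 11 than in each later cluster in KO, where Ndufa1 was at 426 CPM in cluster 11 and 13.9 in cluster 7, and in KI, where it was at 342 and 10.4 CPM. Ndufa2 and Ndufb9, autosomal genes of complex I, stood at 596 and 474 CPM in cluster 7 of WT. Other autosomal members were as low relative to cluster 11, so the drop was not particular to the X-linked genes. In cluster 7 of WT, Ndufa4 and Atp5g2 were at 2.25% and 3.87% of their cluster 11 level, compared with 2.39% for Ndufa1 and 1.62% for Ndufb11. Cox4i2, Cox6a2, Cox7a1 and Cox8b, members of complex IV known from muscle, heart or lung, did not exceed 4.66 CPM in any of the 6 clusters of any library, whereas Cox6a1, Cox7a2 and Cox7a2l were at 164, 1531 and 213 CPM in cluster 7 of WT.

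**Figure D2:**
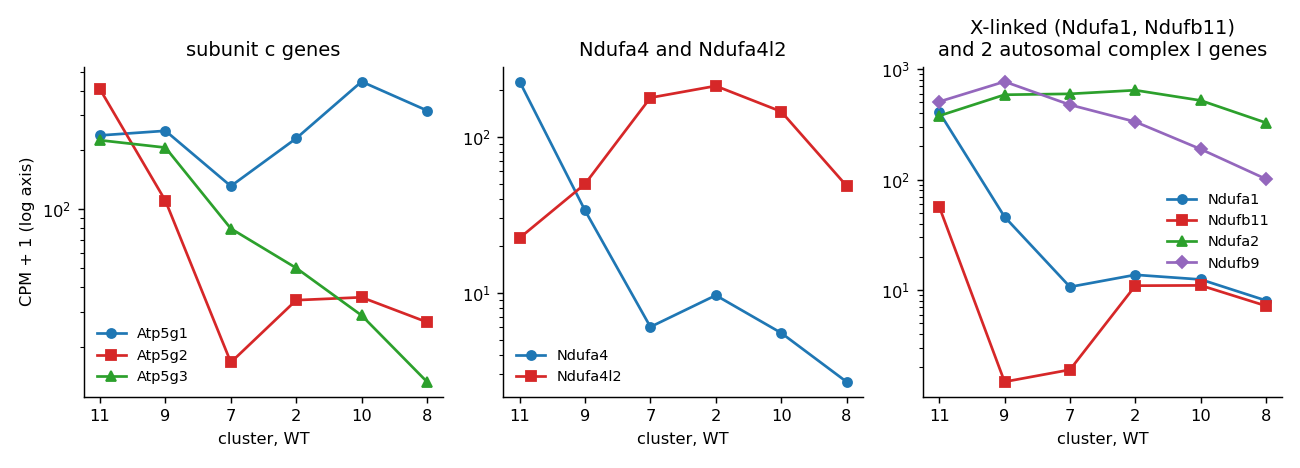
Levels in WT (CPM + 1, log axis) over clusters 11, 9, 7, 2, 10 and 8 for the 3 subunit c genes, for Ndufa4 and Ndufa4l2, and for the X-linked Ndufa1 and Ndufb11 beside the autosomal Ndufa2 and Ndufb9. Atp5g1 is the only subunit c gene that stays above 100 CPM in clusters 2, 10 and 8, the lines of Ndufa4 and Ndufa4l2 cross after cluster 11, and in cluster 7 the X-linked genes are at 9.70 and 0.906 CPM and the autosomal genes at 596 and 474 CPM.

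All 4 genes of complex II, the succinate dehydrogenase that also serves the citric acid cycle, were lower in cluster 10 than in cluster 11. In clusters 11, 9, 7, 2, 10 and 8 of WT, the flavoprotein gene Sdha was at 123, 108, 68.0, 41.0, 14.2 and 1.97 CPM. Sdhb, the iron-sulfur subunit, was at 162, 151, 132, 137, 89.9 and 30.7 CPM. The membrane anchors were the lowest of the 4 genes from cluster 9 on, with Sdhc at 133, 104, 55.0, 36.0, 4.37 and 1.55 CPM and Sdhd at 87.7, 52.8, 66.6, 21.4, 2.1 and 1.13 CPM. Sdhb was thus the Sdh gene that stayed highest in cluster 10.

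Between SP-like and RS-like cells of WT the median of the members was close to that of all genes. Their median log2 ratio was −0.55, compared with −0.59 over all genes tested, and 4 of 71 were higher and 33 lower past 1.5-fold (29.5% and 50.1% of all genes). Over the alternatives run, the difference of the member median from that of all genes ran from −0.54, with no filter on low genes, to 0.09. Atp5g1 (1.13), Ndufa13 (0.86), Ndufa5 (0.65), Atp5l (0.61) and Ndufa7 (0.36) had the highest log2 ratios. Sdhd (−3.85), Sdhc (−3.49), Ndufc2 (−3.25), Ndufs1 (−3.03) and Uqcrc2 (−3.02) had the lowest. Ndufs1, the largest iron-sulfur subunit of complex I, and Uqcrc2, a core subunit of complex III, were thus far below their partners: Ndufs1 stood at 6.64 CPM in cluster 10, whereas Ndufv1 and Ndufv2, which bind flavin and an iron-sulfur cluster, stood at 92.6 and 302 CPM, and Uqcrc2 stood at 12.8 CPM, whereas Uqcrc1 stood at 212 CPM. Counts of UMIs tag the 3′ end of each transcript, so that levels of genes can be compared without a correction for length. The 12 mt- genes tested were all lower, with a median of −5.31. The same step gave a member median of −0.77 in KO (all genes −0.49) and −0.66 in KI (all genes −0.43).

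Between RS-like and ES-like cells of WT, 58 of 64 members were lower past 1.5-fold and 1 was higher, Ndufa13 (67.9% of all genes were lower and 11.9% higher). Their median log2 ratio was −1.65, compared with −1.29 over all genes tested. Uqcrb (−2.80), Cox6c (−2.78), Cox6a1 (−2.66), Cox7c (−2.58) and Ndufb2 (−2.55) were lowest, and Ndufa13 (1.12), Atp5g2 (0.17), Ndufb7 (0.09), Cox7a2l (−0.01) and Atp5h (−0.35) were highest. These ratios depended on the scaling: with the size factors of the trimmed mean of M values (TMM) the member median was −0.35, and that of all genes 0.11. The 8 mt- genes tested had a median of 1.0, which took the opposite sign when cells were classed one by one by their marker score (−1.66) or when cluster 1 was counted as RS-like (−0.54).

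SP-like cells of KO and KI had member levels close to those of WT. Of 73 members tested, 0 were past 1.5-fold lower in both mutants (5.45% of all genes tested were) and 0 higher in both (0.48% of all genes), and 0 were past it in either mutant alone (8.03% of all genes were lower and 1.04% higher in KO, and 6.9% and 1.51% in KI). The median log2 ratio was −0.05 in KO and −0.06 in KI, compared with 0.04 and 0.06 over all genes. Since KO and KI are both set against the same WT library, their ratios share its error and are given side by side. Cox6c, a small subunit of complex IV, was at 1045 CPM in WT, against 808 in KO and 778 in KI (log2 ratios −0.37 and −0.42). Ndufa7 was at 840 CPM in WT, compared with 663 in KO and 637 in KI (−0.34 and −0.40). At the other end, Uqcrc2 was at 111 CPM in WT, against 147 in KO and 144 in KI (0.41 and 0.37), and Sdha was at 66.7, 82.0 and 87.1 CPM (0.29 and 0.38). These 4 genes were picked among members with the same sign in KO and KI, so their shared direction was set by the choice. Atp5s (−0.32 and −0.27), Cox4i1 (−0.25 and −0.32) and Uqcr10 (−0.25 and −0.32) were the next lowest (Atp5s at 0.03 and −0.01 without cluster 2), and Atp5a1 (0.26 and 0.31), Ndufc2 (0.39 and 0.26) and Ndufv2 (0.24 and 0.22) the next highest. Over the alternatives the KO ratio fell as low as 0.18 for Uqcrc2, 0.08 for Sdha and 0.07 for Atp5a1. The KI ratio fell as low as 0.20, 0.22 and 0.18 for the same genes. These genes were lower in cluster 2 than in cluster 9. Cluster 2 supplied 10423652 of the 24370832 SP-like UMIs of WT. It supplied 8251556 of 33126802 for KO and 9023257 of 29896605 for KI. The part of this unequal mix in the ratios was not tested. The mt- genes had medians of 0.39 in KO and 0.35 in KI over 12 genes, of which 2 in KO and 1 in KI were higher past 1.5-fold, with mt-Nd2 so in both, and 2 were below WT in KI.

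Within the SP-like class, clusters 9 and 7 had 0 members lower in both mutants (0.682% and 1.74% of all genes tested) and 0 higher in both (0.215% and 0.616%). In cluster 2, the latest, 5 of 72 were lower (6.94%, near the 4.35% of all genes tested) and 0 were higher (3.36% of all genes). The share of all genes called lower was also greater in cluster 2 than in clusters 9 and 7, so this count does not set the members apart. The 5 members were Cox4i1, Cox6c, Atp5g3, Sdhc and Ndufb2, a small accessory subunit of complex I. Cox4i1 was at 1082 CPM in WT, compared with 515 in KO and 553 in KI (log2 −1.07, −1.12 to −1.02, and −0.97, −1.02 to −0.92). Cox6c was at 1093, 684 and 668 CPM, and Atp5g3 at 49.2, 19.8 and 25.3 CPM. Both mutant libraries were below WT for each of the 5 because the 5 were picked that way. KO and KI were near each other. The member median was −0.16 in KO and −0.22 in KI, compared with 0.05 and 0.07 over all genes, and the summed share of UMIs was 2.20% and 2.14%, compared with 2.55% in WT. Marker levels differed in cluster 2 too, with Ccna1 at 207 CPM in WT, compared with 294 in each mutant, and Piwil1 at 26.3, 18.5 and 18.6 CPM. Tnp1 was at 442, 173 and 76.7 CPM and Prm1 at 1180.5, 179 and 82.2 CPM. The gap in Prm1 was not particular to cluster 2, with 780, 80.8 and 44.0 CPM in cluster 9 and 1325, 110 and 41.8 CPM in cluster 7. Barcodes taken as empty held Prm1 at 19542, 6039 and 8221 CPM. The part of these differences in the result was not tested.

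In RS-like cells (cluster 10) the members together took a lower share of the transcripts in both mutants, with some subunits far below WT and others level with it or above it. Their summed share of UMIs was 1.94% in WT (1.93 to 1.95), 1.54% in KO (1.52 to 1.55) and 1.60% in KI (1.59 to 1.62). The shares of both mutants were below the share of WT for each of the 5 complexes. Complex I took 0.794% of UMIs in WT, against 0.653% in KO and 0.681% in KI, complex III took 0.287%, 0.201% and 0.212%, and complex IV took 0.474%, 0.350% and 0.370%. Complex V was nearest to WT, with 0.371%, 0.323% and 0.333%, and complex II took 0.0111%, 0.00772% and 0.00678%. A share says how the RNA of a cell is divided and not how much there is: a cell of cluster 10 held a mean of 374 member UMIs in WT, compared with 334 in KO and 747 in KI, beside the greater depth of the KI cells.

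Of 69 members tested in RS-like cells, 14 (20.3%) were lower past 1.5-fold in both KO and KI, compared with 8.24% of all genes tested, and 2 (2.90%) were higher in both, compared with 17.6%. Those 2, Ndufs1 and the second Atp5o model, were under 10 CPM in WT and met the minimum mean only through the mutants. The number lower in both depended on the scaling and was 22 with TMM and 23 with median-of-ratios size factors, beside 14.3% and 14.9% of all genes. At 2-fold, 2 members (Cox4i1 and Cox6c) were lower in both, beside 3.16% of all genes, so the excess over all genes was not seen at that limit. The other 9 members were under the minimum of 10 CPM. In KO alone, 17 were lower and 2 higher (10.4% and 21.6% of all genes), and in KI alone 16 were lower and 3 higher (12.8% and 25.7%). The median log2 ratio was −0.23 in each mutant, compared with 0.19 over all genes in KO and 0.20 in KI, and 55 and 57 of the 69 members lay below those medians. By complex, 7 of 33 members of complex I, 1 of 2 of complex II, 3 of 8 of complex III, 2 of 9 of complex IV and 1 of 17 of complex V were lower in both. The excess was not seen in cluster 1, which also scored as round spermatids but was kept apart. There, 1 of 71 members was lower in both (1.41%, compared with 8.93% of all genes).

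Cox4i1 stood out among them. It encodes the nuclear subunit that is added early in the assembly of cytochrome c oxidase, and lies on chromosome 8 of GRCm38 from 120668222 to 120674207 (plus strand). In RS-like cells it was at 558 CPM in WT, against 139 in KO and 108 in KI. Both mutant libraries were far below WT, by 3.99-fold in KO (log2 −2.0, −2.14 to −1.87) and 5.12-fold in KI (−2.35, −2.51 to −2.22). At earlier stages the log2 ratio of KO was smaller, −0.25 over SP-like cells and −1.07 in cluster 2. Cox6c, a small structural subunit of the same enzyme, on chromosome 15 from 35925886 to 35938246 (minus strand), was at 645 CPM in WT, compared with 188 in KO and 225 in KI. It was 3.42-fold lower in KO (log2 −1.77, −1.89 to −1.67) and 2.86-fold lower in KI (−1.51, −1.62 to −1.41). The other 7 members of complex IV that were tested were within 1.5-fold of WT. Cox6a1 was nearest to that limit, at 197, 132 and 152 CPM, Cox7a2 was at 1134, 822 and 906 CPM and Ndufa4l2 at 144, 119 and 117 CPM. Cox5b was at 507, 591 and 603 CPM, Cox7c at 628, 686 and 697 CPM and Cox5a at 843, 735 and 801 CPM. Within this complex, then, Cox4i1 and Cox6c went from near the level of Cox5b and Cox7c in WT to under 250 CPM in both mutants.

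Most of the 7 complex I members lower in both were accessory subunits, as are most of the complex I members tested. Ndufa13 was at 336 CPM in WT, against 184 in KO and 148 in KI (log2 −0.87 and −1.18, but −0.19 and −0.37 with cells classed by marker score, which ends the call). Ndufs6, a zinc-binding subunit near the electron input module, was at 285, 132 and 178 CPM (−1.11 and −0.68), and not past 1.5-fold in both as a mean over cells. Ndufs8, an iron-sulfur subunit of the core, was lowest in KI, at 31.4, 18.2 and 7.15 CPM (−0.75 and −1.99), and was not past 1.5-fold in both with cluster 1 as RS-like. Ndufb9 (188, 89.4 and 105 CPM), Ndufb2 (146, 77.9 and 79.9 CPM), Ndufa2 (519, 309 and 314 CPM) and Ndufa3 (49.2, 25 and 27.4 CPM) made up the rest. Ndufs1 went the other way and was at 6.64, 15.5 and 16.5 CPM (1.11 and 1.20, but 0.20 and 0.16 with cells classed by marker score, which ends the call). It was under 10 CPM in WT and met the minimum mean only through the mutants. Ndufv1 and Ndufv2, which are core subunits, were at 92.6, 98.9 and 97.2 CPM and at 302, 347 and 382 CPM, within 1.5-fold of WT. Ndufa10, an accessory subunit, was at 26.6, 39.0 and 39.7 CPM (0.54 and 0.56), and Ndufs3, a core subunit, at 113, 159.9 and 186 CPM (0.49 and 0.71), past 1.5-fold in KI alone and in neither with TMM or with cells classed by marker score (0.11 and 0.21). Ndufb8 was at 390 CPM in WT, compared with 390 in KO and 403 in KI.

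In complex II, Sdhb was at 89.9 CPM in WT, against 48.0 in KO and 43.9 in KI (log2 −0.89 and −1.02), and Sdha at 14.2, 19.2 and 19.7 CPM. In complex III, the small subunits Uqcrq (1578, 941 and 1010 CPM), Uqcrb (219, 118 and 124 CPM) and Uqcrh (162, 94.9 and 105 CPM) were lower (Uqcrh not past 1.5-fold in both as a mean over cells, with cluster 1 as RS-like or without shared barcodes). Uqcrc1 (212, 213 and 220 CPM) and the Rieske iron-sulfur protein gene Uqcrfs1 (161, 157 and 180 CPM) were near WT. Uqcr10 and Uqcr11, also small subunits, were tested and were not lower past 1.5-fold in both. In complex V, Atp5g3 alone was lower in both, at 27.8, 14.0 and 8.38 CPM (−0.94 and −1.62). The catalytic subunit genes Atp5b (302, 329 and 336 CPM) and Atp5a1 (44.0, 57.2 and 47.3 CPM) were within 1.5-fold of WT, as were Atp5g1 (443, 378 and 373 CPM), Atp5h (399, 407 and 418 CPM) and Atp5l (286, 279 and 285 CPM). The second gene model of Atp5o was at 5.83, 15 and 12.8 CPM, and its main model at 244, 232 and 254 CPM.

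KO and KI differed little from each other in these genes. Over the 69 members the median log2 ratio of KI to KO was 0.03 (all genes 0.02), 0 members were higher past 1.5-fold in KI and 2 were lower, Ndufs8 (−1.24) and Atp5g3 (−0.68), compared with 2.4% and 4.85% of all genes tested. In KI they had 29 and 34 UMIs.

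**Figure D3:**
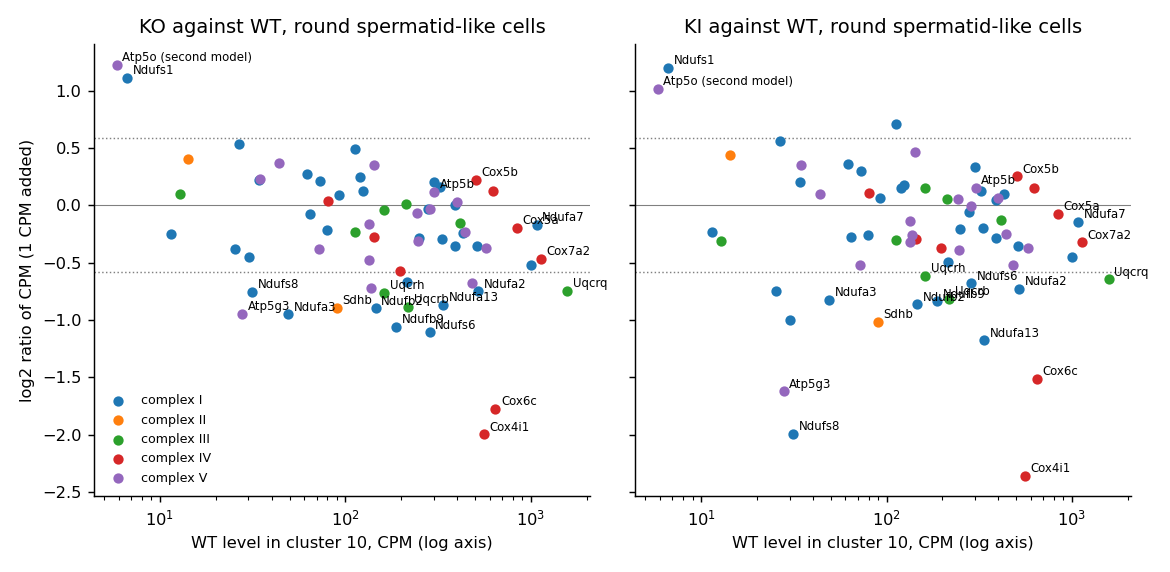
Log2 ratio to WT (1 CPM added) in RS-like cells for KO (left) and KI (right), against the WT level in CPM (log axis), for the 69 members tested, coloured by complex. Dotted lines mark 1.5-fold; Cox4i1 (−2.0 and −2.35) and Cox6c (−1.77 and −1.51) lie lowest among the abundant members, Ndufs1 and the second Atp5o model lie above the upper line, and most members lie between the lines.

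**Figure D4:**
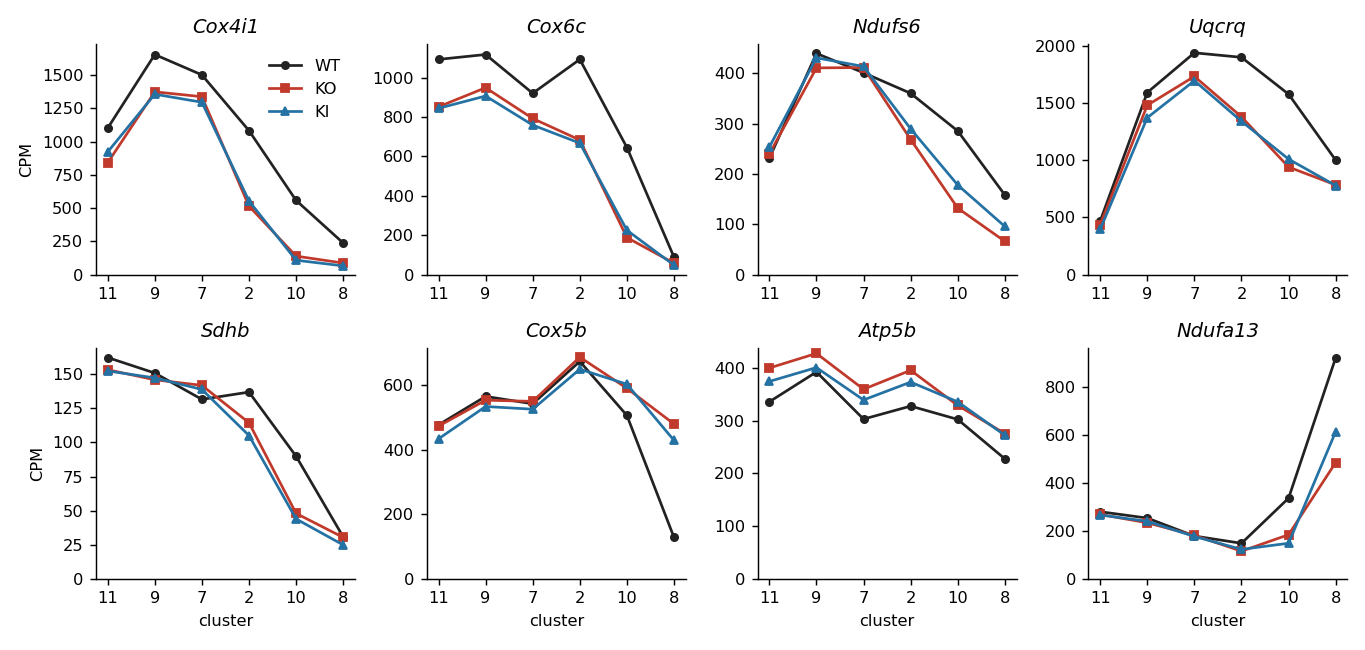
Levels (CPM, axis from 0) of 8 members in clusters 11, 9, 7, 2, 10 and 8, in stage order, with 1 line for each of WT, KO and KI. The lines of Cox4i1, Cox6c, Ndufs6, Uqcrq and Sdhb part in clusters 2 and 10, with KO and KI under WT, those of Ndufa13 in clusters 10 and 8, and those of Atp5b stay close throughout, while Cox5b is higher in KO and KI in cluster 8.

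Several measures moved with genotype in RS-like cells beside these results. The summed markers of elongated spermatids took 3.10% of UMIs in WT, compared with 1.44% in KO and 1.07% in KI, with Tnp1 (a transition protein) at 4215, 1994 and 1367 CPM and Prm1 (a protamine) at 7563, 1921 and 1082 CPM. The round spermatid markers took 0.750%, 0.796% and 0.766%, with Acrv1 at 737, 779 and 793 CPM, and the spermatocyte markers 0.931%, 1.01% and 1.07%, with Ccna1 at 30.9, 61.2 and 70.8 CPM. No somatic marker list exceeded 0.00555% in any library. Barcodes taken as empty, which hold free RNA, carried Cox4i1 at 1027 CPM in WT, against 680 in KO and 642 in KI, and Cox6c at 1084, 700 and 602 CPM. If free RNA were present in cluster 10 at the level that Piwil1, a spermatocyte gene, showed there relative to empty barcodes, it would give 76.7, 80.6 and 14.2 CPM of Cox4i1, and by mt-Co1 it would give 117, 171 and 57.5 CPM. The residual Cox4i1 level of KO was thus below the latter bound and those of WT and KI above both. The part of cell stage and of free RNA in the differences was not tested.

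The mt- genes took the opposite direction in KO. In RS-like cells, mt-Co1, a catalytic subunit of complex IV, was at 80.6 CPM in WT, compared with 243 in KO and 84.6 in KI, and mt-Cytb of complex III was at 23.2, 107 and 20.2 CPM. KI was near WT for both, and KO was above both other libraries. All 8 mt- genes tested were higher past 1.5-fold in KO, compared with 21.6% of all genes, with a median log2 ratio of 2.05. In KI the median was 0.30 and 2 of 8 were higher (mt-Nd1 and mt-Nd2), near the share of all genes, 25.7%. These 2 genes were at 7.93 and 5.34 CPM in WT and met the minimum mean only through the mutants, so their calls in KO and KI carry little weight. The KI median was −2.13 with 10% of the empty-barcode profile subtracted, which gives no direction. In cluster 10, mt-Co1 was at 8.95% of its empty-barcode level in KI and at 11.4% in WT. The subtraction therefore leaves none of it in KI and little in WT. Set against KO, KI was lower in 8 of 8, with a median of −1.66. Cells with over 1% mitochondrial UMIs made up 0.938% of the cells of cluster 10 in WT, against 3.8% in KO and 2.30% in KI. Without those cells the median of KO was 1.20, and with cells classed one by one by marker score it was 0.63.

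In early ES-like cells (cluster 8, with 481 WT, 254 KO and 105 KI cells) Cox4i1 and some of the other members were also lower in both mutants. Of 62 members tested, 8 were lower in both mutants (12.9%, compared with 5.67% of all genes tested), namely Cox4i1, Cox6c, Ndufa2, Ndufa3, Ndufa13, Ndufb9, Ndufs6 and Ndufs8. These were 8 of 8 of the list in cluster 8 and 8 of 14 of the list in RS-like cells, 2 lists set against the same WT library. The overlap over all genes was not counted, so this number does not set the members apart from other genes. Cox4i1 was at 238 CPM in WT, compared with 87.1 in KO and 65.8 in KI (log2 −1.44 and −1.84). Free RNA at the level of mt-Co1 would give 147, 110.2 and 79.7 CPM of it here, and 155, 113 and 74.7 CPM of Cox6c, which was measured at 88.9, 58.1 and 48.2 CPM. By this measure the level of Cox4i1 in both mutants and that of Cox6c in all 3 libraries was below what free RNA could give, whereas by Piwil1 (38.7, 49.0 and 30.6 CPM of Cox4i1 and 40.8, 50.5 and 28.7 CPM of Cox6c) all were above it. Ndufa13, at its highest here, was at 922, 485 and 614 CPM. A further 18 were higher in both (29.0%, compared with 47.3% of all genes), among them Cox5b at 128, 480 and 429 CPM, the Rieske gene Uqcrfs1 at 23.6, 62.7 and 61.3 CPM and Ndufs7, a core iron-sulfur subunit of complex I, at 15.1, 50.9 and 43.1 CPM. The member median was 0.16 in KO and 0.26 in KI, compared with 0.62 and 0.65 over all genes. With TMM the member medians were −0.54 and −0.45 and those of all genes −0.10 and −0.07, so the sign of the member median depended on the scaling in this cluster. So did the counts: in KO 20 members were higher and 8 lower by the main scaling but 7 and 29 with TMM, and in KI 20 and 8 became 6 and 26. Cluster 8 differed between libraries in its markers too, with Prm1 at 88881, 26302 and 25809 CPM and Acrv1 at 168, 517 and 466 CPM. Spaca1, another round spermatid marker, was at 142, 726 and 692 CPM, so the ratios in cluster 8 do not compare like cells. In cluster 5 (817 WT, 252 KO and 102 KI cells), 64 of 74 members were higher in both mutants (86.5%, compared with 73.4% of all genes) and 0 lower (5.4% of all genes), and 13 of 13 mt- genes were higher. The median depth of a cell was 7637 UMIs in WT, compared with 1726 in KO and 1222.5 in KI. The cells also differed in kind, with Prm1 at 150299, 13767 and 33044 CPM and Acrv1 at 14.6, 325 and 318 CPM. Piwil1 was at 6.88, 76.7 and 26.0 CPM and Cst9, a Sertoli cell gene, at 3.44, 111 and 268 CPM. The study described no distinct elongated spermatids in KO or KI, so cluster 5 does not compare like cells either. Cluster 6 held 1115 WT, 9 KO and 1 KI cells and is not described between genotypes.

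**Figure D5:**
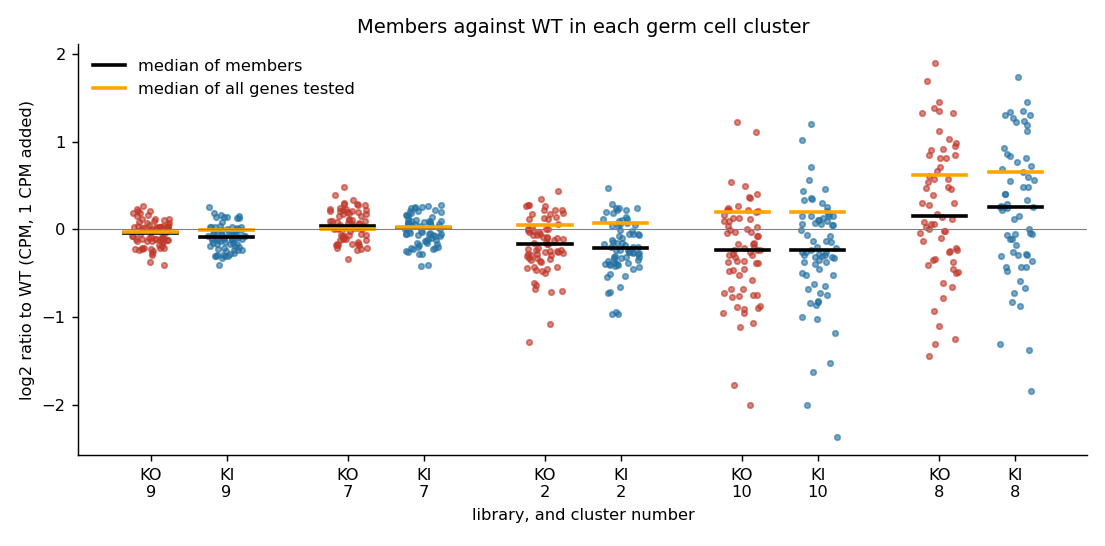
Log2 ratios to WT (1 CPM added) of the members tested in KO and KI for clusters 9, 7, 2, 10 and 8, with 1 point per member, the median of the members (black) and the median of all genes tested (orange). The points spread around 0 in clusters 9 and 7. Some members lie lower in cluster 2, where more of all genes were called lower too, and the lowest reach −2.0 in KO and −2.35 in KI in cluster 10. In cluster 8 the member median (0.16 and 0.26) lies under that of all genes (0.62 and 0.65).

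The lower members had shorter coding sequences on the median than the other members. The 14 members lower in both mutants in RS-like cells had a median coding length of 340.5 bases, compared with 438 for the 55 others tested. Across genes, which are not independent, Spearman's rho of coding length with the log2 ratio was 0.48 in KO and 0.45 in KI over 69 members and 0.30 and 0.33 over 6315 genes, all points of one comparison sharing the same libraries. With mRNA length it was 0.31 and 0.28 over the members and 0.24 and 0.26 over all genes, so the members were nearer to all genes by that measure.

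Other genes of the pathway were read against the same backgrounds in RS-like cells, 8.24% of genes lower and 17.6% higher in both mutants. Of 43 assembly factors, which build the complexes without being part of them, 20 were tested, with 3 lower and 2 higher in both mutants and median log2 ratios of −0.09 in KO and −0.12 in KI. Ndufaf2, an assembly factor of complex I, was at 400.4 CPM in WT, against 177 in KO and 201 in KI. Cox11, which helps to insert copper into complex IV, was at 39.7, 7.99 and 7.89 CPM in the same order, and Sdhaf4, an assembly factor of complex II, at 39.5, 12 and 13.1 CPM. These are the 3 assembly factors called lower in both mutants, so their shared direction follows from the choice. Ecsit, which takes part in the assembly of complex I, was above WT in both, at 44.2 CPM in WT, compared with 130.4 in KO and 123 in KI, as was Coa3, an assembly factor of complex IV, at 11, 17.2 and 17.3 CPM.

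Of the 14 citric acid cycle genes, 9 were tested, with none lower and 4 higher in both mutants by the fold of 1.5, and their median log2 ratios of 0.16 and 0.21 were near those of all genes, 0.19 and 0.20. Fh1, which encodes fumarase, was at 47.0 CPM in WT, against 86.4 in KO and 82.6 in KI. Dld, a subunit shared by several dehydrogenase complexes, and Mdh2, malate dehydrogenase, were also among them. Of the genes for expression of mitochondrial DNA, 23 were in the files and 5 were tested. Slirp, which binds mitochondrial mRNAs, was lower, at 178 CPM in WT, compared with 80.7 in KO and 87.3 in KI. Lrpprc, its binding partner, was at 7.29, 15.2 and 13.6 CPM. None of the 3 regulators tested, of 8, passed 1.5-fold in both mutants, and Nrf1, a transcription factor of nuclear mitochondrial genes, was at 25.6 CPM in WT, against 45.0 in KO and 37.7 in KI.

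The 5 genes outside the set named here followed the members most closely over the SP-like, RS-like and ES-like classes of the 3 libraries, by Pearson's r of log2 CPM with the mean of the members over 9 points, among 8545 genes searched. They were Hint1 (r 0.998), Thoc1 (0.998), Slbp (0.997), C8b (0.996) and Aurkaip1 (0.996), which encodes a protein of the mitochondrial ribosome. In WT, Hint1 was at 639 CPM in SP-like cells, at 395 in RS-like cells and at 129 in ES-like cells, and at 317 CPM in RS-like cells of KO and of KI.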

How the data were processed

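The authors deposited raw UMI counts per gene and barcode of 3 libraries, neither normalized nor called as cells. Reads were aligned to mm10. The submitters' processing notes name Cell Ranger 2.1.1, whereas the file headers name Cell Ranger 4, and the labels and the paper name different sequencing instruments, so the counting settings are uncertain. Reads that map to near-identical gene copies can go uncounted, and which members this touches was not analysed here.

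Cells were called after the default of Cell Ranger (3000 expected cells, then barcodes of at least 500 UMIs compared with ranks 45000 to 90000 at a false discovery rate of 0.01, up to 20000 barcodes, a limit reached in KO). Calling gave 7006 WT, 4739 KO and 2000 KI cells. The limits of the study were then applied, which are more than 500 genes and less than 10% of UMIs from mitochondrial genes. Libraries were integrated with SCTransform over 2000 genes, members and mt- genes left out, and 100 principal components were clustered (Leiden, resolution 0.3, 20 neighbours) with Seurat 5.3.0, sctransform 0.4.2, R 4.3.3, scanpy 1.11.5, leidenalg 0.10.2, numpy 2.4.6, scipy 1.17.1, pandas 2.3.3 and Python 3.11.15. Doublets were not removed. Clusters took names from marker lists, by a rule chosen after the clusters were seen.

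UMIs were summed per cluster and library and scaled to CPM. Log2 ratios had 1 CPM added, and a gene counted as lower or higher past 1.5-fold if its mean over the compared sums was at least 10 CPM. With 1 library per genotype no test was made. Intervals are exact Poisson or Clopper-Pearson at 95%, for counting error only. The comparison was tested on simulated data with known answers. Members, gene lists and markers were chosen with earlier results of these data known. Genes named are the subunits with several genes, the Sdh genes, core subunits, the 5 most abundant, the 5 highest and lowest of each stage and genotype comparison and the mt- genes, as a group or singly. For genotype, the 5 were taken among members with the same sign in KO and KI. The members called in both mutants, Ndufa1, Ndufb11 and a few near WT were added after their values were seen. Promoters are from RefSeq (GRCm38.p6) and gene positions from GENCODE M21. Some genes that were measured are not reported here.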

Additional observations from a re-analysis of the deposited data

Results flagged for a closer look

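Barcodes taken as empty, which entered only as a measure of free RNA, carried the members at 2.47% of UMIs in WT, compared with 2.29% in KO and 2.1% in KI, a share near that of spermatocytes. Cluster 1, the cluster of few UMIs per cell that was kept out of the RS-like class, held Cox4i1 at 549 CPM in WT, against 416 in KO and 176 in KI, so that KO was nearer to WT there than in cluster 10. In cluster 1 the median log2 ratio of the members was 0.40 in KO and −0.24 in KI, compared with 0.11 and 0.06 over all genes tested. Of 71 members tested there, 1 was lower in both mutants, Ndufa13 (1.41%, compared with 8.93% of all genes). Higher in both were 4 (5.63%, compared with 13.5% of all genes). The levels of empty barcodes and of cluster 1 have no control library, and the source of these UMIs was not tested.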

How the results depend on the processing

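No paired analysis was possible because each genotype had 1 library, and for the same reason no replicate could be left out in turn. Between 10 and 15 alternatives were run for each comparison with WT in SP-like and RS-like cells and clusters 2 and 8 and for the steps between classes in WT, and the other results were not recomputed. Of the alternatives, those on cluster 1, cluster 2, the 1% mitochondrial limit, shared barcodes and the 2-fold call were chosen after seeing the data. Scaling moved the member medians together with the median of all genes. With TMM and with median-of-ratios size factors, the member median in RS-like cells was −0.48 and −0.50 in KO and −0.45 and −0.47 in KI, the number of members lower in both was 22 and 23 (14.3% and 14.9% of all genes), the RS-like against SP-like median was −0.16 and −0.0704, and the ES-like against RS-like median was −0.35 and −0.31 for members and 2.33 and 2.37 for mt- genes. Relative to all genes the member median of KO was −0.42 under the main scaling and under both of these, and over all alternatives the smallest distance was −0.18 in KO and −0.24 in KI. Median-of-ratios gave −4.84 for mt- genes from SP-like to RS-like cells, and in cluster 8 the mt- median of KO became −0.10 with TMM and −0.13 with median-of-ratios. Totals without mt-, protamine and transition protein UMIs gave −1.21 for members from RS-like to ES-like cells. A call at 2-fold left 2 members lower in both, Cox4i1 and Cox6c (3.16% of all genes).

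The mt- medians depended on which cells entered. In RS-like cells of KO they were 0.63 with classes by marker score, 0.69 with that and no mitochondrial limit, 4.98 with 10% of the empty-barcode profile subtracted, 1.55 without the 5% of cells with most UMIs and 1.20 without cells over 1% mitochondrial UMIs. In KI they were 0.66 as a mean over cells and −2.13 with the subtraction, and in SP-like cells of KO the mean over cells gave 0.51. From SP-like to RS-like cells of WT they were −2.19, −2.13 and −8.05 under the first 3 of these settings, −3.63 with cluster 1 as RS-like and −5.70 without cluster 2. From RS-like to ES-like cells they were −1.66, −1.71 and 3.67, and −0.54 with cluster 1, and the subtraction gave −2.18 for members. Members higher in both mutants in RS-like cells numbered 1 under both marker-score settings. The mt- values with the subtraction are not sizes of a change. In cluster 10, mt-Co1 was at 11.4% of its empty-barcode level in WT and 8.95% in KI, so little or none is left. The cause of the other shifts was not tested.

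The 14 members lower in both stayed lower past 1.5-fold with marker-score classes except Ndufa13, as a mean over cells except Ndufs6 and Uqcrh, with cluster 1 as RS-like except Ndufs8 and Uqcrh, and without shared barcodes except Uqcrh. The setting with cluster 1 as RS-like mostly follows cluster 10, since UMIs are summed. In WT cluster 1 gave 1187508 UMIs and cluster 10 gave 6176777. Over the alternatives the log2 ratio of Cox4i1 ranged from −2.66 to −1.46 in KO and from −3.35 to −2.02 in KI. Depth limits the genes under 10 CPM and the 87 KI cells of cluster 10.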

Other observations

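In cluster 5, late ES-like in WT, the members took 0.606% of UMIs in WT, compared with 1.62% in KO and 1.40% in KI. The mt- genes took 0.0677%, 1.95% and 1.79%. Both mutants had far less Prm1 in this cluster than WT, and more Acrv1 and Cst9. These shares therefore do not compare like cells and are not a difference between late spermatids. In cluster 1 the members took 1.10%, 1.34% and 0.861% and the mt- genes 0.557%, 1.15% and 0.618%, in the same order.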
